A study of Mus musculus with 16 samples.

Results

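The 10 genes described here belong to the integrated stress response. Atf4, Atf5, Atf3, Ddit3 and Cebpb encode transcription factors, and Asns, Chac1, Trib3, Sesn2 and Ddit4 are targets of ATF4. They were chosen by name while the differences between LKO and CRE- livers in these same libraries were known, and these LKO against CRE- values were thus selected on and are given below as a description without a test. All 10 were found among the 41079 genes of the count table, and all 10 were among the 16742 genes kept by a filter on low counts. Liver RNA was sequenced from 4 male CRE-, 4 male LKO, 4 female CRE- and 4 female LKO mice on the C57BL/6J background, which were 20 to 22 months old. Both genotypes carried loxP sites around several exons of Gcgr, the gene of the glucagon receptor. LKO mice also carried Albumin-Cre, which acts in hepatocytes, and CRE- mice had no Cre and kept the receptor. The sum of counts ran from 33268424 to 56488920 per library. Levels are given as CPM, counts scaled to the size of the library, with sizes corrected by TMM, a trimmed mean over genes.

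In the integrated stress response, kinases that sense amino acid shortage, unfolded protein, viral RNA or low heme phosphorylate the initiation factor eIF2. This lowers general translation and raises translation of Atf4 mRNA, and the ATF4 protein, paired with C/EBP proteins, switches on genes of amino acid synthesis, amino acid transport, tRNA charging and redox control. In liver the pathway is known as a response to amino acid imbalance and to stress of the endoplasmic reticulum, and ATF4 protein is set largely by translation, which RNA counts do not measure.

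Gcgr, the deleted gene, was at 162, 208, 201 and 180.0 CPM in female CRE- replicates 1 to 4 and at 48.8, 132, 119 and 93.6 CPM in female LKO replicates 1 to 4. All 4 female LKO mice were below all 4 female controls. In males Gcgr was at 190.4, 193, 127 and 189.6 CPM in CRE- replicates 1 to 4 and at 117, 136, 129.9 and 160.3 CPM in LKO replicates 1 to 4, and CRE- replicate 3 lay within the range of the LKO mice. Its log2 fold change was -0.93 in females (SE 0.25, Benjamini-Hochberg adjusted p = 0.0443 in the quasi-likelihood test of edgeR) and -0.37 in males (SE 0.24, adjusted p = 0.671 by the same test). Leaving out any female mouse but LKO replicate 2 took the female call away, and over these 8 fits the female log2 fold change was between -1.11 and -0.69. Reads were counted over all exons of the gene, deleted or not, and were not split by exon. In males it did not separate the genotypes, and the cause was not tested.

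The levels of the 10 genes were compared per kilobase of exon, because longer genes collect more reads. In male CRE- mice Atf5 was highest, at 174 ± 36.6 CPM per kb (SD, n = 4), followed by Cebpb at 72.0 ± 23.7 and Atf4 at 45.1 ± 13.95 CPM per kb, and the values of Cebpb and Atf4 overlapped. Trib3, Ddit4, Sesn2, Ddit3 and Chac1 were between 1.96 and 3.59 CPM per kb on average in male CRE- mice, and each overlapped with its neighbor in the order. Atf3 followed at 1.304 ± 0.210 CPM per kb and Asns was lowest at 0.172 ± 0.0531 CPM per kb, with every Asns value below every Atf3 value. Female CRE- mice had the same first 3 genes, with Atf5 at 294 ± 35.2 CPM per kb, and the same last gene, with Asns at 0.211 ± 0.235 CPM per kb, where it overlapped with Atf3. In male LKO mice Asns was in place 5, at 13.8 ± 8.33 CPM per kb, and its values overlapped with those of Trib3 above it and Chac1 below it. In female LKO mice Asns was in place 8, at 4.84 ± 2.27 CPM per kb, and overlapped with Sesn2 above it and Ddit3 below it. Atf5, Cebpb and Atf4 kept the first 3 places in both LKO groups.

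**Figure D1:**
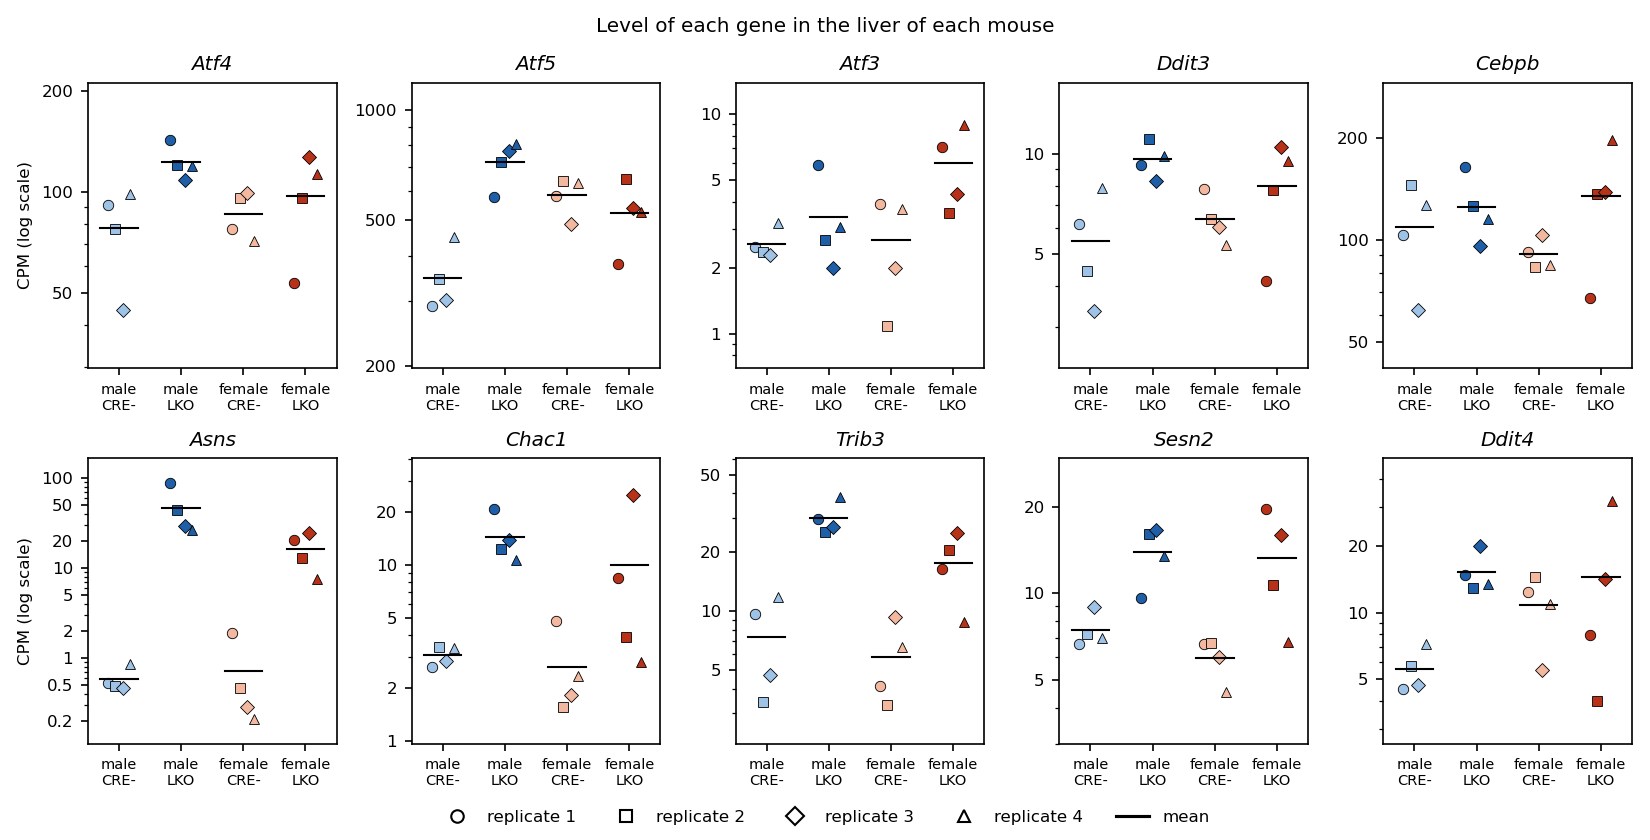
Level of each of the 10 genes in CPM (log scale) in the 4 mice of each group, where symbols mark replicates 1 to 4 and the line marks the mean. Asns was at or below 1.91 CPM in all 8 CRE- mice and at or above 7.58 CPM in all 8 LKO mice, while the groups of Atf3 and Cebpb overlapped in both sexes.

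Among the factors, Atf4 (chr15:80139385-80141746 of GRCm39) encodes the factor whose translation eIF2 phosphorylation raises. In males it was at 91.2, 77.7, 44.3 and 98.8 CPM in CRE- replicates 1 to 4 and at 143, 120.3, 108 and 119.8 CPM in LKO replicates 1 to 4. All 4 male LKO mice were above all 4 male controls, of which replicate 3 was low, and the log2 fold change was 0.66 (SE 0.26). In females Atf4 was at 77.2, 95.8, 99.4 and 71.2 CPM in CRE- replicates 1 to 4 and at 53.4, 96.04, 127 and 113 CPM in LKO replicates 1 to 4. Of the female LKO mice, replicates 3 and 4 were above every control, replicate 1 was below every control and replicate 2 was among them. Leaving out LKO replicate 3 took the female log2 fold change from 0.18 (SE 0.26) to 0.030, and leaving out LKO replicate 1 took it to 0.41.

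Atf5 (chr7:44461680-44466082) encodes a factor related to ATF4 that also responds to protein stress in mitochondria. It was at 290.3, 345, 302 and 451 CPM in male CRE- replicates 1 to 4 and at 579, 719, 775 and 807 CPM in male LKO replicates 1 to 4. Every male LKO mouse was above every male control, with a log2 fold change of 1.05 (SE 0.20). In female CRE- replicates 1 to 4 it was at 584, 639, 487 and 632 CPM, and in female LKO replicates 1 to 4 it was at 378, 648, 539 and 526 CPM. Female LKO replicate 1 was below every female control, replicate 2 was above every one, and the log2 fold change was -0.16 (SE 0.20). The female controls, at 586 ± 70.2 CPM (SD, n = 4), were all above the male controls, at 347 ± 72.99 CPM (SD, n = 4), and 3 of the 4 were above male LKO replicate 1, the lowest of its group.

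Atf3 (chr1:190902493-190915530) encodes a stress-induced factor that ATF4 switches on and that also responds to inflammation and to mitogens. In male CRE- replicates 1 to 4 it was at 2.48, 2.36, 2.29 and 3.19 CPM, and in male LKO replicates 1 to 4 at 5.87, 2.67, 1.99 and 3.08 CPM. The male groups overlapped, with LKO replicate 1 above and LKO replicate 3 below every control. The male log2 fold change of 0.40 (SE 0.41) was -0.020 without LKO replicate 1. In females Atf3 was at 3.90, 1.09, 1.99 and 3.69 CPM in CRE- replicates 1 to 4 and at 7.10, 3.54, 4.35 and 8.97 CPM in LKO replicates 1 to 4. Replicates 1, 3 and 4 of the female LKO mice were above every control and replicate 2 was among them. For Atf3 in females the log2 fold change was 1.17 (SE 0.42), or 0.90 without LKO replicate 4.

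Ddit3 (chr10:127126662-127132160) encodes CHOP, a factor linked to cell death in prolonged stress. It was at 6.15, 4.43, 3.35 and 7.89 CPM in male CRE- replicates 1 to 4 and at 9.29, 11.1, 8.32 and 9.91 CPM in male LKO replicates 1 to 4. The male LKO mice were all above the male controls, the closest pair being LKO replicate 3 and CRE- replicate 4, and the log2 fold change was 0.82 (SE 0.29). Female values were 7.85, 6.37, 6.01 and 5.32 CPM in CRE- replicates 1 to 4 and 4.13, 7.78, 10.5 and 9.57 CPM in LKO replicates 1 to 4. Replicates 3 and 4 of the female LKO mice were above every control and replicate 1 was below every control, with a log2 fold change of 0.32 (SE 0.29).

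Cebpb (chr2:167530835-167532352) encodes C/EBPβ, a partner of ATF4 on DNA that also acts in the acute-phase response of hepatocytes. Male CRE- replicates 1 to 4 were at 103, 146, 61.96 and 127 CPM and male LKO replicates 1 to 4 at 165, 126, 95.8 and 115 CPM. LKO replicate 1 was above every male control and the others were among the controls, with a log2 fold change of 0.20 (SE 0.29), which was -0.0099 without male CRE- replicate 3. Female CRE- replicates 1 to 4 were at 92.1, 83.2, 103 and 84.5 CPM and female LKO replicates 1 to 4 at 67.2, 136, 139 and 197 CPM. Replicates 2, 3 and 4 of the female LKO mice were above every control and replicate 1 was below every control, with a log2 fold change of 0.57 (SE 0.29).

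Among the targets, Asns (chr6:7675169-7693209) encodes asparagine synthetase, which makes asparagine from aspartate and glutamine. It was at 0.527, 0.490, 0.468 and 0.854 CPM in male CRE- replicates 1 to 4, or 26, 22, 18 and 38 reads, and at 87.9, 44.04, 29.5 and 26.4 CPM in male LKO replicates 1 to 4. Every male LKO mouse was far above every control, replicate 1 was the highest, and the ratio of the group means was 80.3. The male log2 fold change was 6.32 (SE 0.68). In females Asns was at 1.91, 0.467, 0.287 and 0.214 CPM in CRE- replicates 1 to 4, or 86, 24, 12 and 8 reads, and at 20.7, 12.9, 24.8 and 7.58 CPM in LKO replicates 1 to 4. The female groups did not overlap either, and the lowest LKO mouse, replicate 4, was above the highest control, replicate 1. The ratio of the female means was 22.9, and the log2 fold change of 4.50 (SE 0.62) was 5.63 without female CRE- replicate 1. In bulk liver a change in the share of cells of a type and a change in RNA per cell cannot be told apart, and this holds for all values here.

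Chac1 (chr2:119181723-119184807) encodes an enzyme that degrades glutathione. It was at 2.64, 3.43, 2.86 and 3.37 CPM in male CRE- replicates 1 to 4 and at 20.9, 12.3, 13.9 and 10.6 CPM in male LKO replicates 1 to 4. All male LKO mice were above all male controls, with a log2 fold change of 2.23 (SE 0.55). In females it was at 4.84, 1.56, 1.82 and 2.35 CPM in CRE- replicates 1 to 4 and at 8.41, 3.89, 25.1 and 2.81 CPM in LKO replicates 1 to 4. Female LKO replicates 1 and 3 were above every control, replicates 2 and 4 were within their range, and the highest LKO mouse was 8.95-fold above the lowest. The female log2 fold change was 1.93 (SE 0.55), but 0.92 without LKO replicate 3 and 2.40 without CRE- replicate 1.

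Trib3 (chr2:152179345-152185980) encodes a pseudokinase that binds ATF4 and AKT. Male CRE- replicates 1 to 4 had 9.60, 3.43, 4.68 and 11.8 CPM and male LKO replicates 1 to 4 had 29.5, 25.3, 26.9 and 38.3 CPM. The male controls spread 3.43-fold from lowest to highest, and all male LKO mice were above them, with a log2 fold change of 2.03 (SE 0.41). Female CRE- replicates 1 to 4 had 4.13, 3.31, 9.31 and 6.58 CPM and female LKO replicates 1 to 4 had 16.4, 20.6, 25.00 and 8.79 CPM. Only LKO replicate 4 was below a female control, namely CRE- replicate 3, and the female log2 fold change was 1.60 (SE 0.40).

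Sesn2 (chr4:132220115-132237767) encodes sestrin 2, a leucine-binding protein that restrains mTORC1. In male CRE- replicates 1 to 4 it stood at 6.63, 7.22, 8.94 and 6.97 CPM and in male LKO replicates 1 to 4 at 9.60, 16.03, 16.6 and 13.5 CPM. The groups did not overlap in males, although LKO replicate 1, the mouse with the most Asns, was close to the controls, and the log2 fold change was 0.91 (SE 0.28). In female CRE- replicates 1 to 4 it stood at 6.63, 6.74, 5.99 and 4.52 CPM and in female LKO replicates 1 to 4 at 19.6, 10.6, 15.97 and 6.77 CPM. The female groups were separated by a narrow gap between LKO replicate 4 and CRE- replicate 2, and the log2 fold change was 1.15 (SE 0.28).

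Ddit4 (chr10:59785497-59787592) encodes REDD1, another restraint on mTORC1, which also responds to glucocorticoids and hypoxia. It was at 4.54, 5.75, 4.73 and 7.24 CPM in male CRE- replicates 1 to 4 and at 14.9, 12.9, 19.9 and 13.5 CPM in male LKO replicates 1 to 4. All male LKO mice were above all male controls, with a log2 fold change of 1.46 (SE 0.46). In females Ddit4 was at 12.5, 14.5, 5.51 and 10.96 CPM in CRE- replicates 1 to 4 and at 7.96, 3.99, 14.2 and 32.1 CPM in LKO replicates 1 to 4. LKO replicate 4 was above every female control, replicate 2 was below every one, and the spread among female LKO mice was 8.05-fold. The female log2 fold change of 0.42 (SE 0.45) rested on replicate 4 and was -0.30 without it.

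Counted over the 10 genes, 8 had every male LKO mouse above every male control, where 3.57% of all genes tested did. In females 2 of the 10, Asns and Sesn2, were separated in this way, beside 5.20% of all genes, and the same 2 were separated in both sexes, beside 0.412%. Nothing is read from these counts, because the contrast was known when the genes were chosen.

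Markers of 9 kinds of cell were listed, and 3 of the lists, picked after their values were seen, are given by mouse. The summed level of 8 macrophage and Kupffer cell markers, of which Clec4f was the most abundant, was 599.9, 444, 477 and 869.9 CPM in female CRE- replicates 1 to 4 and 2989, 706, 1713 and 1061 CPM in female LKO replicates 1 to 4. The sum of 8 neutrophil markers, led by S100a9, was 36.4, 20.8, 16.8 and 17.5 CPM in female CRE- and 116, 44.8, 63.9 and 532 CPM in female LKO replicates 1 to 4. The 8 hepatocyte markers, led by Alb, summed to 115444, 113562, 119928 and 135219 CPM in female CRE- and 50116, 92346, 91241 and 69233 CPM in female LKO replicates 1 to 4. All 4 female LKO mice were below all 4 female controls in this sum, while for 6 of the 8 hepatocyte markers taken singly the female groups overlapped. Of the female LKO mice replicate 1 held the highest macrophage sum and replicate 4, which had the most Atf3, Cebpb and Ddit4, held the highest neutrophil sum. In males the macrophage markers summed to 659, 348, 202 and 970.4 CPM in CRE- and 931, 488, 534 and 500.1 CPM in LKO replicates 1 to 4. The neutrophil markers were lower on average in male LKO mice, with overlap, at sums of 80.3, 20.7, 17.4 and 147 CPM in CRE- and 27.3, 16.9, 13.1 and 12.5 CPM in LKO replicates 1 to 4. The hepatocyte markers summed to 73134, 100835, 105591 and 98422 CPM in male CRE- and 66046, 81762, 93734 and 81969 CPM in male LKO replicates 1 to 4, and these overlapped. In females edgeR called 1 of 8 macrophage, 2 of 7 tested neutrophil and 0 of 8 hepatocyte markers (7, 7 and 3 by unadjusted p), beside 4.24% of all genes called and 3584 of 16742 with an unadjusted p under 0.05. DESeq2, whose counts cover all 8 listed markers of each kind, called 6, 8 and 2 in females, beside 1795 genes in all. In males edgeR called 0 of each (0, 6 and 2 by unadjusted p), and DESeq2 called 0, 2 and 0. Over all genes edgeR called 0.454% in males, and 1595 of 16742 had an unadjusted p under 0.05. Of the other 6 lists, endothelium had 1 of 6 markers called by edgeR in females, higher (3 by unadjusted p, 2 by DESeq2), and the list median was 0.52. The lists of cholangiocytes, stellate cells, pancreatic cells, B and plasma cells, and T and NK cells had 0 calls by edgeR and 0 by DESeq2 in either sex, with 2 markers under an unadjusted p of 0.05 in females and 1 in males. Of the 6 pancreatic markers only 1 was tested by edgeR. Their sum was 279 CPM in female CRE- replicate 2, beside 7.65, 9.07 and 11.8 CPM in female CRE- replicates 1, 3 and 4, and 74.4 CPM in male CRE- replicate 2. No marker of the 3 lists given by mouse was at 0 in every library. Their part in the levels of the 10 genes was not tested.

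The difference between the sexes in the LKO against CRE- log2 fold change is made of the 2 contrasts that chose the genes, so for the 10 genes it is given as a description without a test. Over the whole table edgeR's test of this interaction called 0 genes, 0% of those tested, at an adjusted p under 0.05, where 2672 had an unadjusted p under 0.05 and DESeq2 called 372. For Atf5 the female minus male difference was -1.22 (SE 0.28), and it was between -1.37 and -1.06 in the 16 fits that left out a mouse. For Asns it was -1.82 (SE 0.81), and -0.68 without female CRE- replicate 1. For Ddit4 it was -1.04 (SE 0.64), and -1.75 without female LKO replicate 4. For the other 7 genes the difference was between -0.50 (Ddit3) and 0.77 (Atf3). The difference for Chac1 was -0.30 (SE 0.75), and it went from -1.30 without female LKO replicate 3 to 0.17 without female CRE- replicate 1.

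The sexes were also compared without the knockout, as female CRE- against male CRE- mice. The CRE- values of the 10 genes were part of the contrasts that chose them, so for these genes the comparison is a description without a test. Among all genes 0.920% passed an adjusted p of 0.05 in this comparison and 7.54% had values that did not overlap. Of the 10 genes Atf5 was the only one with values that did not overlap. Its log2 difference was 0.76 in favor of females (SE 0.20). Female controls had 10.9 ± 3.85 CPM of Ddit4 and male controls 5.57 ± 1.23 CPM (SD, n = 4 each), a log2 difference of 0.96 (SE 0.46). Of the other 8 genes the log2 difference was between -0.34 (Trib3) and 0.31 (Asns). The value for Asns was -0.82 without female CRE- replicate 1, which held 1.91 CPM where the other female controls held at most 0.467 CPM.

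The 10 genes did not rank the LKO mice alike. Male LKO replicate 1 was the highest of its group for 5 genes (Asns, Atf4, Atf3, Chac1 and Cebpb) and the lowest for Atf5 and Sesn2. Female LKO replicate 3 was the highest of its group for 5 genes (Asns, Atf4, Ddit3, Chac1 and Trib3) and the lowest for none. Female LKO replicate 4 was the lowest for Asns, Chac1, Trib3 and Sesn2 and the highest for Atf3, Cebpb and Ddit4. Female LKO replicate 1 was the lowest for Atf4, Atf5, Ddit3 and Cebpb and the highest for Sesn2.

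Relations of Asns with each of the other 9 genes were tested across the 8 LKO mice, on log2 CPM centered on the mean of each sex, with exact two-sided permutation of Asns within sex. These 9 relations form 1 family, in which 0 passed an adjusted p of 0.05 and 1, that of Chac1, had an unadjusted p under 0.05. Chac1 followed Asns most closely, with a Pearson r of 0.79 (exact permutation p = 0.0174, Benjamini-Hochberg adjusted p = 0.156) and a Spearman rho of 0.86 (exact permutation p = 0.0139, adjusted p = 0.125). Chac1 was in the same order as Asns in 5 of 6 pairs of male LKO mice and in 6 of 6 pairs of female LKO mice, and r was 0.75 without male LKO replicate 1 and female LKO replicate 4, the 2 mice farthest from the median of Asns. Atf4 RNA had an r of 0.0090 with Asns (exact permutation p = 0.986, adjusted p = 0.986) and a rho of 0.17 (exact permutation p = 0.757, adjusted p = 0.863), but leaving out female LKO replicate 1 gave an r of 0.69 and leaving out female LKO replicate 3 gave -0.29. Atf5 had an r of -0.60 (exact permutation p = 0.155, adjusted p = 0.695) and a rho of -0.52 (exact permutation p = 0.247, adjusted p = 0.863), and in males all 6 pairs of LKO mice were in the opposite order to Asns. For Trib3 r was 0.45 and for Sesn2 0.32, but without the 2 mice named r was -0.23 for Trib3 and 0.72 for Sesn2. The sign for Trib3 and the size for Sesn2 thus changed with these mice. For Ddit4 r went from -0.30 to 0.63, and for Ddit3 from -0.18 to 0.17, when the 2 mice were left out. Atf3 had an r of 0.23 and Cebpb of -0.12, and across Atf3, Ddit3, Trib3, Ddit4, Sesn2 and Cebpb the exact permutation p of r was at least 0.323 and that of rho at least 0.391, with rho between -0.29 and 0.38.

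**Figure D2:**
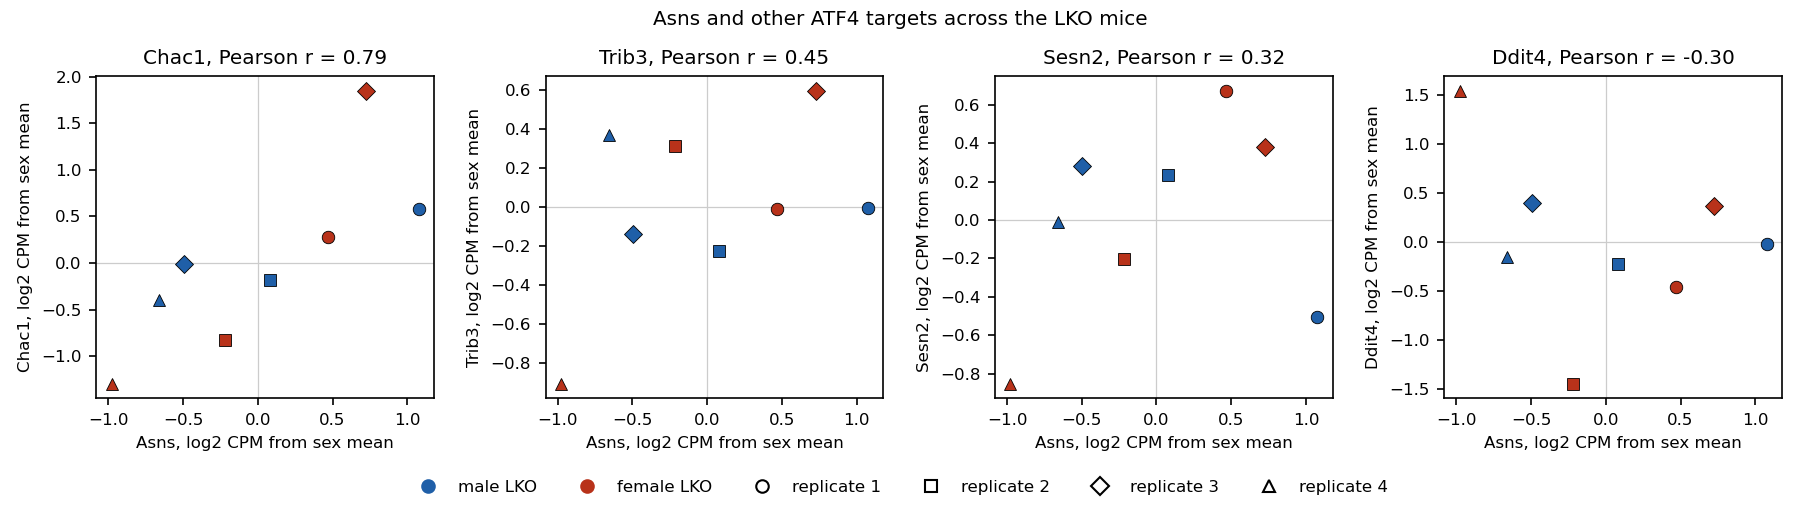
Log2 CPM of Asns (horizontal) against Chac1, Trib3, Sesn2 and Ddit4 (vertical) in the 4 male and 4 female LKO mice, each as the difference from the mean of its sex. Chac1 had a Pearson r of 0.79 with Asns, which did not pass (exact permutation test, Benjamini-Hochberg adjusted p = 0.156). Trib3, Sesn2 and Ddit4 had r of 0.45, 0.32 and -0.30, and of -0.23, 0.72 and 0.63 without male LKO replicate 1 and female LKO replicate 4.

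Over all 16742 genes tested, the 6 genes outside the 10 with the highest Pearson r with Asns across the 8 LKO mice, on the same centered scale, were Tbc1d10c (0.99), Pgap3 (0.98), Cd8a (0.97), Flt3 (0.97), Ubash3a (0.97) and Sf3b1 (0.97). These are the extremes of many genes over few mice, given as a description. Their mean levels were between 0.324 and 119.7 CPM over the 4 groups, and none of the 6 passed in LKO against CRE- in either sex, where Asns itself had log2 fold changes of 6.32 and 4.50.

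Around the 10 genes, 80 other genes of the response were listed, of which 79 were tested. These lists, like the 10 genes, were drawn up with earlier results of these data known, so their calls and shares describe the pathway and are not independent of what was known. In males edgeR called 7 of the 79 higher and 0 lower (0 lower by unadjusted p and 0 by DESeq2), beside 0.221% and 0.233% of all genes (0.454% in either direction), and their median log2 fold change was 0.28, beside -0.0078 over all genes. In females 9 were higher and 2 lower, beside 2.09% and 2.15% of all genes (4.24% in either direction), with a median of 0.15 beside 0.035. Leaving out male CRE- replicates 1 to 4 in turn gave 3, 3, 3 and 5 higher genes in males, and leaving out male LKO replicates 1 to 4 gave 4, 6, 7 and 6. In females 7, 2, 2 and 2 genes were higher when CRE- replicates 1 to 4 were left out in turn, and 5, 13, 6 and 10 when LKO replicates 1 to 4 were. The count of lower genes was 0 in 6 of these 8 fits, 4 without LKO replicate 2 and 1 without LKO replicate 3, and the 2 genes lower with all mice kept their calls only without LKO replicate 2.

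Upstream of ATF4, none of the 9 eIF2 kinases and regulators and none of the 10 subunits of eIF2, eIF2B and the eIF2 phosphatase passed in males by edgeR, with medians of -0.17 and 0.18, where unadjusted p under 0.05 numbered 0 and 1 and DESeq2 called 0 and 1. In males 0.454% of all genes passed, so counts of 0 are near the share and nothing is read from them. In females the first of these lists had 1 call by edgeR (2 by unadjusted p, 1 by DESeq2), with a median of 0.0024, beside 4.24% of all genes called. The second of these lists had 0 calls by edgeR in females, 0 unadjusted and 0 by DESeq2, with a median of 0.0073. Oma1, a mitochondrial protease that relays stress to the kinase HRI, fell in female LKO mice from 15.7, 19.1, 17.1 and 20.3 CPM in CRE- replicates 1 to 4 to 7.78, 12.9, 12.1 and 11.9 CPM in LKO replicates 1 to 4 (log2 fold change -0.69, SE 0.18, adjusted p = 0.0441 by edgeR), a call that held in 1 of 8 fits without a female mouse, the one without LKO replicate 2. Of the 12 paralogs of the 10 genes edgeR called 0 in males (1 by unadjusted p, 0 by DESeq2), beside 0.454% of all genes. The male log2 fold changes of the paralogs were between -0.85 (Sesn3) and 0.69 (Ddit4l), and Asnsd1, the paralog of Asns, was at 0.26 (SE 0.13) in males and -0.19 (SE 0.13) in females. In females edgeR called 1 of the 12 paralogs (4 by unadjusted p, 4 by DESeq2), beside 4.24% of all genes called and 3584 of 16742 by unadjusted p, and their log2 fold changes were between -1.002 (Cebpa) and 1.58 (Cebpd). Jdp2, a relative of Atf3, rose in females from 2.31, 2.18, 2.01 and 3.69 CPM in CRE- replicates 1 to 4 to 12.6, 3.89, 5.09 and 4.45 CPM in LKO replicates 1 to 4 (log2 fold change 1.35, SE 0.37, adjusted p = 0.0481 by edgeR), and it kept its call in 1 of 8 fits, the one without LKO replicate 2.

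The 48 tested genes of the ATF4 target lists held 7 of the male and 8 of the female higher calls. Of 12 genes of amino acid synthesis, 5 rose in males, beside 0.221% of all genes, with a median of 1.54 (8 by unadjusted p, 8 by DESeq2). In females 4 rose and 1 fell, beside 2.09% and 2.15% of all genes, with a median of 1.23 (9 by unadjusted p, 8 by DESeq2). Phgdh and Psat1, which act in serine synthesis as Asns acts in asparagine synthesis, separated the groups in both sexes. Phgdh was at 0.629, 0.535, 1.25 and 1.26 CPM in male CRE- and 32.98, 18.6, 12.6 and 9.29 CPM in male LKO replicates 1 to 4 (log2 fold change 4.32, SE 0.46, adjusted p = 4.25e-04 by edgeR), and its female log2 fold change was 2.15 (SE 0.42, adjusted p = 0.0166 by edgeR). Psat1 had log2 fold changes of 5.07 in males (SE 0.63, adjusted p = 0.00132 by edgeR) and 3.64 in females (SE 0.59, adjusted p = 0.00646 by edgeR). Mthfd2 was called higher in both sexes, Aldh1l2 in males and Aldh18a1 in females. Pycr1, called higher in males, and Cbs, called lower in females, were named after their values were seen. In females the log2 fold change was 2.14 (SE 0.63) for Aldh1l2 and 1.55 (SE 0.47) for Pycr1. In males it was 1.68 (SE 0.48) for Aldh18a1 and -0.40 (SE 0.21) for Cbs. These did not pass, but a call in only males or only females shows no difference between the sexes. Left out 1 at a time, the 8 mice of a sex never cost Psat1 its call in either sex or Phgdh its male call. Phgdh in females was lost without CRE- replicates 2, 3 or 4, and Mthfd2 without these or LKO replicate 1. In males Mthfd2 and Aldh1l2 were lost without any CRE- mouse or LKO replicate 1, and Pycr1 without any of the 8 mice. Over these 8 fits the log2 fold change was 1.99 to 2.75 for Mthfd2, 3.15 to 3.95 for Aldh1l2 and 2.39 to 2.64 for Pycr1. Over all genes the male calls went from 76 to between 26 and 49 in these fits. Aldh18a1 was lost without any female CRE- mouse or LKO replicates 1 or 3, with an adjusted p by edgeR of up to 0.1595 for Aldh18a1. Cbs was lost without any female mouse but LKO replicate 2.

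Of the listed amino acid transporters edgeR called 0 in males, beside 0.454% of all genes, where 8 of 9 were tested, 4 had an unadjusted p under 0.05, DESeq2 called 2 and the median was 0.81. Slc7a1, a carrier of cationic amino acids, rose in females (log2 fold change 1.80, SE 0.45, adjusted p = 0.0362 by edgeR) and lost its call without CRE- replicates 2, 3 or 4 or LKO replicates 1 or 3, with a list median of 1.13. The female log2 fold change of Slc7a1 was 1.20 without LKO replicate 1. Slc7a1 was the 1 transporter called in females (5 by unadjusted p, 4 by DESeq2), beside 2.09% of all genes higher. Its male log2 fold change was 0.87 (SE 0.44), with every male LKO mouse above every male control, while the female groups overlapped. The female minus male difference for Slc7a1 was 0.93 (SE 0.62). Of 13 tRNA charging genes edgeR called 0 in either sex (7 in males and 2 in females by unadjusted p, 2 and 1 by DESeq2), with medians of 0.33 in males and 0.058 in females. Beside them 0.454% of all genes were called in males and 4.24% in females, and counts of 0 are near these shares. By unadjusted p, 1595 of all 16742 genes passed in males and 3584 in females. The 7 tRNA charging genes in males were all higher, and the 2 in females were 1 higher and 1 lower. In 6 of the 13 every male LKO mouse was above every male control, beside 3.57% of all genes, and in females in 0, beside 5.20%. Among 15 other ATF4 targets, 2 rose in males, beside 0.221% of all genes, and 3 in females, beside 2.09%, with medians of 0.36 and 0.35 (5 and 7 by unadjusted p, 5 and 4 by DESeq2). Adm2, a peptide hormone gene, had no reads in the 4 male controls and 4.58, 1.58, 1.34 and 1.57 CPM in male LKO replicates 1 to 4, at least 33.2-fold higher against a floor of 3 counts per library. This bound uses the male LKO mean of 2.27 CPM, which replicate 1 raised above the median of 1.57 CPM, and is lower without that mouse. The male median of the list was 0.36 also with Adm2 at this bound. In females Adm2 had 2 reads in CRE- replicate 1, none in the others and 0.252, 0.598, 1.54 and 1.27 CPM in LKO replicates 1 to 4. It passed in all 8 fits of either sex, but the filter kept it only through its reads in LKO mice. Its calls, which the counts of higher genes include, are therefore a description from which nothing is read. Fgf21 encodes a liver hormone and was at 1.89, 1.87, 2.39 and 1.44 CPM in female CRE- and 8.13, 24.3, 90.9 and 1.504 CPM in female LKO replicates 1 to 4, of which replicate 4 was among the controls. Its female log2 fold change was 2.57 without LKO replicate 3. It passed in males (log2 fold change 5.21, SE 0.87, adjusted p = 0.0113 by edgeR) and females (4.04, SE 0.83, adjusted p = 0.0194 by edgeR), but it lost its call without CRE- replicates 1, 2 or 3 in males and without CRE- replicates 2, 3 or 4 in females, as did Tnfrsf10b, a death receptor gene called in females, without the same 3 female controls.

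**Figure D3:**
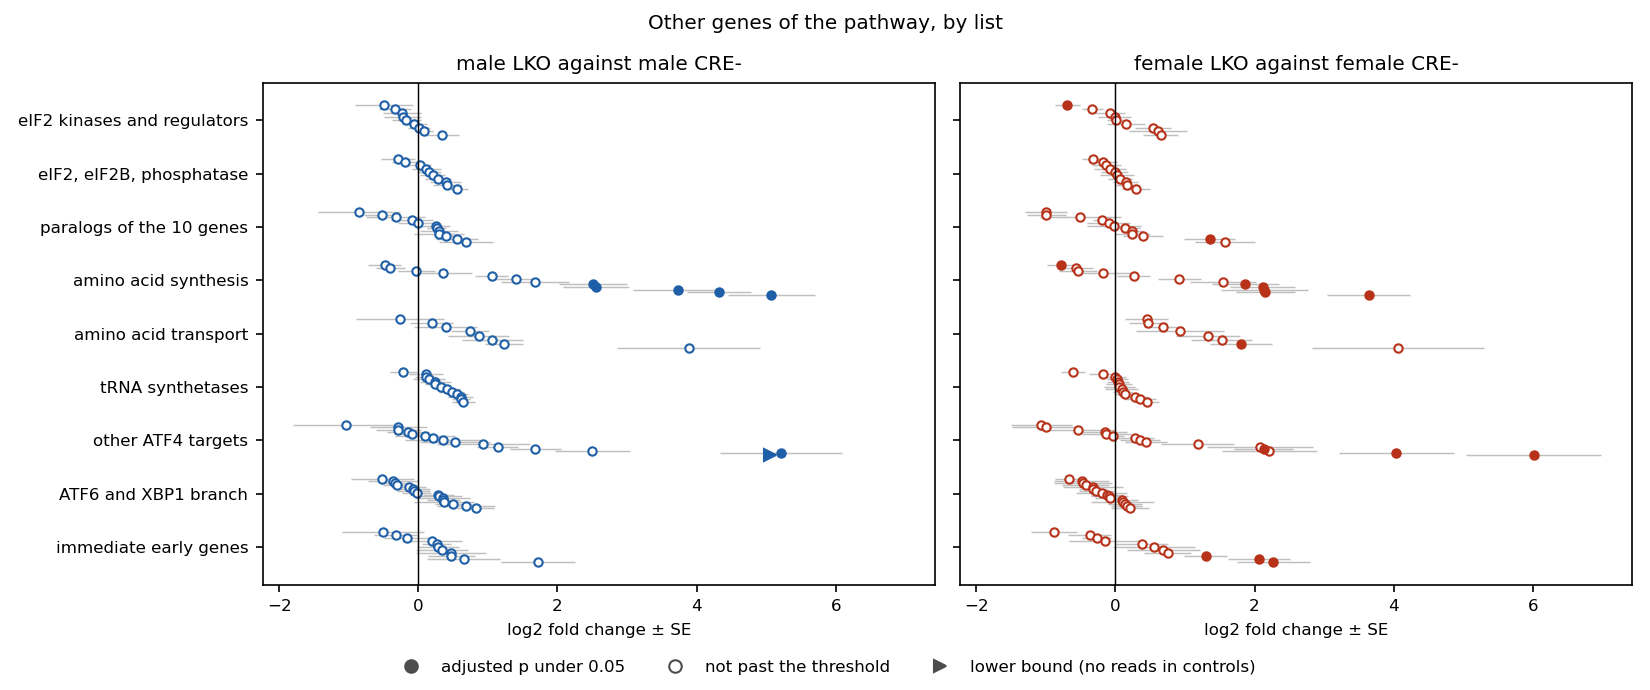
Log2 fold change ± SE of LKO against CRE- for each tested gene of 9 lists, in males (left) and females (right), where filled points had an adjusted p under 0.05 and the arrow marks the lower bound of Adm2. Of the 48 tested ATF4 targets 7 are filled in males and 9 in females, 1 of the latter lower, beside 0.454% and 4.24% of all genes. Of the 11 immediate early genes 3 are filled in females.

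Of the 16 genes of the ATF6 and XBP1 branch, which raises chaperones of the endoplasmic reticulum, edgeR called 0 in either sex (1 in each by unadjusted p), with medians of 0.13 in males and -0.16 in females. Of all genes 0.454% were called in males and 4.24% in females, so counts of 0 are near these shares and mark no contrast with other lists. DESeq2 called 0 of them in males and 1 in females, and edgeR also called 1 without female LKO replicate 4. Immediate early genes, which respond within minutes to handling or signals and overlap with Atf3 in their control, had 0 of 11 calls by edgeR in males (1 by unadjusted p, 1 by DESeq2), beside 0.454% of all genes. In females 3 of the 11 were called, all higher (5 by unadjusted p, 3 by DESeq2), beside 2.09% of all genes higher in females. Myc was at 2.06 (SE 0.45), Ier3 at 2.27 (SE 0.52) and Klf6 at 1.30 (SE 0.31) in female log2 fold change. None of these 3 kept its call without CRE- replicates 2, 3 or 4 or LKO replicate 4, and Ier3 was at 1.465 without LKO replicate 4. Klf6 also lost its call without CRE- replicate 1 or LKO replicate 1. Their part in the levels of Atf3, Cebpb and Ddit4 was not tested.

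The 10 genes lie on 7 chromosomes, with Chac1, Trib3 and Cebpb on chromosome 2 and Ddit3 and Ddit4 on chromosome 10. Promoters were read from RefSeq for all 10, as the 250 bases before the start (11 windows, 2 of them of Atf5; table of build GRCm38.p6, positions by exact match on GRCm39). The motif TGATGNAA, the core of the element that ATF4 and C/EBP proteins bind together, was searched on both strands. It was in the windows of 3 of the 10 genes, Asns, Atf3 and Chac1, or 3 of the 11 windows, and in 3.45% of the 32851 promoter windows of the table. Of 30 genes of the ATF4 target lists, 6 held it (20.0%). These 3 windows are shown because they hold the motif. Capitals mark the motif, which begins 23 bases before the start in Asns, 110 bases before it in Atf3 and 193 bases before it in Chac1, and which is on the opposite strand in Atf3 and Chac1. Each sequence runs toward the gene, at chr6:7693210-7693459 (minus strand) for Asns, chr1:190915531-190915780 (minus strand) for Atf3 and chr2:119181473-119181722 (plus strand) for Chac1.
Asns: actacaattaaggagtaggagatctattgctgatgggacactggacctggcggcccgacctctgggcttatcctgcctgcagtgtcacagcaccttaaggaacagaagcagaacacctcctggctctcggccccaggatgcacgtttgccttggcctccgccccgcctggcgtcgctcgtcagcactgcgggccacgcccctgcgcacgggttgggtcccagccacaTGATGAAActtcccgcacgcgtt
Atf3: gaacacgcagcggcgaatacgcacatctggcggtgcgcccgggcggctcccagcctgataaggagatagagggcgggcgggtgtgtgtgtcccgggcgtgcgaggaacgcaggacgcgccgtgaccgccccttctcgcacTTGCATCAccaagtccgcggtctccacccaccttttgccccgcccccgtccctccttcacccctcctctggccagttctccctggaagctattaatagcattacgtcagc
Chac1: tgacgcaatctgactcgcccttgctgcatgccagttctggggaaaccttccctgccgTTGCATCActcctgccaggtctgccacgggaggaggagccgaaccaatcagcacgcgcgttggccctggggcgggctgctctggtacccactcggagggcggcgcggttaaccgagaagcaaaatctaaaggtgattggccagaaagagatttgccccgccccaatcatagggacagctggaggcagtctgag
In the windows of Trib3, Sesn2, Ddit4, Atf4, Atf5, Ddit3 and Cebpb these letters were not found, which says nothing of sites elsewhere, and a match is a description and not a binding site.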

How the data were processed

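The authors aligned paired reads of poly-A selected liver RNA to GRCm39 with STAR 2.7.1a and deposited a count of reads per gene from featureCounts (Subread 2.0.6), run by strand, without normalization. Per the file header both reads of a pair were counted singly, so a fragment can give 2 counts, and reads that align to several places were left out. Replicates are separate mice per the labels.

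The counts were filtered with filterByExpr (minimum count 10), normalized by TMM and fitted for 16 libraries in 4 groups with edgeR 4.0.16 in R 4.3.3. The quasi-likelihood test was used with Benjamini-Hochberg adjustment over all genes tested and a threshold of 0.05. Log2 CPM used a prior count of 2. SE was taken from the fold change and its F value. The alternatives were DESeq2 1.42.0, RLE normalization, no filter, a replicate block, each sex alone, a minimum of 10 counts per library, each library left out, and for relations with Asns a prior count of 0.5.

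The genes and lists were chosen with earlier results of these data known. Genes named beside the 10 were Gcgr, the 6 genes most correlated with Asns, those of the 4 genes with the smallest p per list and sex that passed the threshold, the paralog of Asns and the extremes of the paralogs, and 2 genes named after their values were seen. The fit was tested on simulated counts. The smallest chi-square per degree of freedom between libraries of a group was 36.5, so none was a duplicate.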

Additional observations from a re-analysis of the deposited data

Results flagged for a closer look

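Over the 10 genes and 4 groups, 40 sets of 4 values were examined for a value far from the others, and chance marks about 1 set in 20, or 2 of 40. The number found was 2, which is what chance gives, both for Asns in control groups. Male CRE- replicate 4 held 0.854 CPM of Asns where the other male controls held at most 0.527 CPM, and this gap was 0.846 of the range of the group, above Dixon's critical value for 4 samples. Female CRE- replicate 1 held 1.91 CPM where the other female controls held at most 0.467 CPM, a gap of 0.850 of the range. Both were far below the LKO mice of their sex. Without the first, the male log2 fold change of Asns was 6.56, and without the second the female one was 5.63.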

How the results depend on the processing

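The number of genes past the threshold in males was 76, and 336 with DESeq2, with 26 to 49 when a male mouse was left out. In females it was 710, and 1795 with DESeq2, 1244 with the replicate block, 119 with each sex alone and 87 to 1310 when a female mouse was left out. Of 24 pairs of libraries with the same number 11 correlated above 0.1 (-0.25 to 0.33). Between CRE- and LKO mice r was 0.170, 0.170, 0.144 and -0.013 in males and 0.173, 0.105, 0.117 and 0.028 in females, for replicates 1 to 4. Not every pair was above 0.1 in either sex, and the numbers were not treated as pairs, so the block is given here only. Pairs of unlike number were not compared, so whether the same number marks a batch cannot be told from these values. The 7 higher genes of the wider response in males were 18 with DESeq2 and 3 to 7 with a mouse left out. In females the 9 higher genes were 17 with DESeq2, 14 with the block, 3 with each sex alone and 2 to 13 with a mouse left out, and the 2 lower genes were 5 with DESeq2, 4 with the block, 0 without a filter, 0 with at least 10 counts in every library, 0 with each sex alone and 0 to 4 with a mouse left out. The interaction gave 0 genes, 372 with DESeq2, 12 without a filter and 0 to 14 with a mouse left out. Female against male controls gave 154 genes, 499 with DESeq2, 78 with at least 10 counts in every library and 68 to 149 with a mouse left out. With each sex fitted alone, Gcgr, Oma1, Jdp2, Mthfd2, Aldh18a1, Cbs, Slc7a1, Fgf21, Tnfrsf10b, Ier3 and Klf6 lost their female calls. Without a filter Gcgr, Oma1, Cbs and Jdp2 lost theirs, and with at least 10 counts in every library Gcgr, Oma1 and Cbs did. Of the 9 relations with Asns 0 passed in each alternative tried for them. Signs turned with a mouse left out for Atf3 in males (-0.020 to 0.58), Cebpb in males (-0.0099 to 0.37), Ddit4 in females (-0.30 to 0.73), the sex difference of Chac1 (-1.30 to 0.17), and female against male controls for Asns (-0.82 to 0.57), Atf4 (-0.073 to 0.28) and Atf3 (-0.20 to 0.31), where the block also gave -0.066 for Asns and -0.11 for Atf3. Pearson r with Asns turned with a mouse left out for Atf4 (-0.29 to 0.69), Atf3 (-0.38 to 0.76), Ddit3 (-0.52 to 0.22), Trib3 (-0.14 to 0.69), Ddit4 (-0.60 to 0.35), Sesn2 (-0.22 to 0.90) and Cebpb (-0.53 to 0.36), and without the 2 mice farthest from the median it was 0.17 for Ddit3, -0.23 for Trib3 and 0.63 for Ddit4. The cause was not tested. For Asns no row could be given with at least 10 counts in every library, since 1 control has 8. The log2 fold changes of Asns were between 5.80 and 6.56 in males and between 4.22 and 5.63 in females with a mouse left out. Genes such as Asns in controls, with 8 to 86 reads, carry more counting error than the others.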
